A study of Cyanidioschyzon merolae with 8 samples.

Results

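CMK044C, CMR165C and CMQ213C are 3 nuclear genes of the unicellular red alga Cyanidioschyzon merolae that were taken, by their IDs, as genes for sigma factors of the plastid RNA polymerase. They are 3 of 5091 gene IDs in the authors' deposited table, and all 3 were tested by the authors in both comparisons. Neither the table nor the RefSeq gene table used here gives these IDs a product name, so their identity as sigma factors rests on the ID and could not be checked in these data.

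The plastid RNA polymerase is of the bacterial kind. Its core enzyme is encoded in the chloroplast genome, while the sigma factors, which let the core recognise promoters and start transcription, are encoded in the nucleus, made in the cytosol and imported into the plastid. A cell can thus alter which chloroplast genes are transcribed by changing which sigma factors it makes. In the land plant Arabidopsis thaliana, the transcript of one such factor, SIG5, is raised by blue light.

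The libraries came from wild-type cells of strain 10D in 4 groups of 2 biological replicates, 8 libraries in all. Cultures grown at pH 2.3 and 42 °C under constant illumination (100 µmol m-2 s-1) were darkened for 36 h. One group then received blue light at 15 µmol m-2 s-1 for 30 min and another received red light for 30 min; for the red light no intensity was found in the labels. The meter was read at 365 nm for the blue and at 630 nm for the red experiment. Each lit group was set against its own dark control, called here the BL(-) control for the blue and the RL(-) control for the red experiment, after the labels; lit cells carry the labels BL(+) and RL(+). The authors' table holds 1 FPKM value per condition (fragment counts corrected for the length of the transcript and for library size) with the replicates already combined. No SD can therefore be given, the depth of the libraries is unknown, and every test below is the one the authors deposited. A gene was called changed where the authors' q-value was under 0.05. FPKM is relative to all mapped fragments, so a change in the RNA content of a cell would not show in it.

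The first comparison asked how blue light alters the transcripts of dark-kept cells. All 3 sigma factor genes changed: CMK044C and CMR165C rose, and CMQ213C fell. Of the 4517 IDs tested under blue light, 40.6% were called, 22.2% as higher and 18.4% as lower. Calls were thus common, and the count of 3 out of 3 is a description of a very small set.

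CMR165C lies on chromosome 18 at 407082 to 409033, in the coordinates of the authors' files, for which no genome build was stated in the sources used here. Its level was 33.4 FPKM in the BL(-) control, 342 FPKM under blue light, 269 FPKM in the RL(-) control and 356 FPKM under red light. The BL(-) control thus stood far below the other 3 conditions. The change under blue light was 10.2-fold, or 3.36 on the log2 scale; in the authors' deposited table q was 0.00045. Its p-value there, 5e-05, was shared by 663 genes of that comparison, so p-values do not rank it among them. Among 4435 nuclear genes with a ratio in this comparison, 117 had a higher ratio than CMR165C. It moved from percentile 19.4 of nuclear transcript levels in the dark to percentile 87.3 under blue light.

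CMK044C lies on chromosome 11 at 126838 to 129004. Its level was 178 FPKM in the BL(-) control, 623 FPKM under blue light, 162 FPKM in the RL(-) control and 235 FPKM under red light. Here the dark controls were close and blue light gave the high value. The rise under blue light was 3.51-fold, or 1.81 on the log2 scale; in the authors' deposited table q was 0.00146. Its ratio was higher than that of 3995 of the 4435 nuclear genes.

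CMQ213C lies on chromosome 17 at 534618 to 535999. Its level was 1740 FPKM in the BL(-) control, 501 FPKM under blue light, 622 FPKM in the RL(-) control and 498 FPKM under red light. The BL(-) control was the high value, at percentile 98.3 of nuclear transcript levels. The fall under blue light was 3.47-fold, or -1.80 on the log2 scale; in the authors' deposited table q was 0.00770. Only 174 of the 4435 nuclear genes had a lower ratio.

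**Figure D1:**
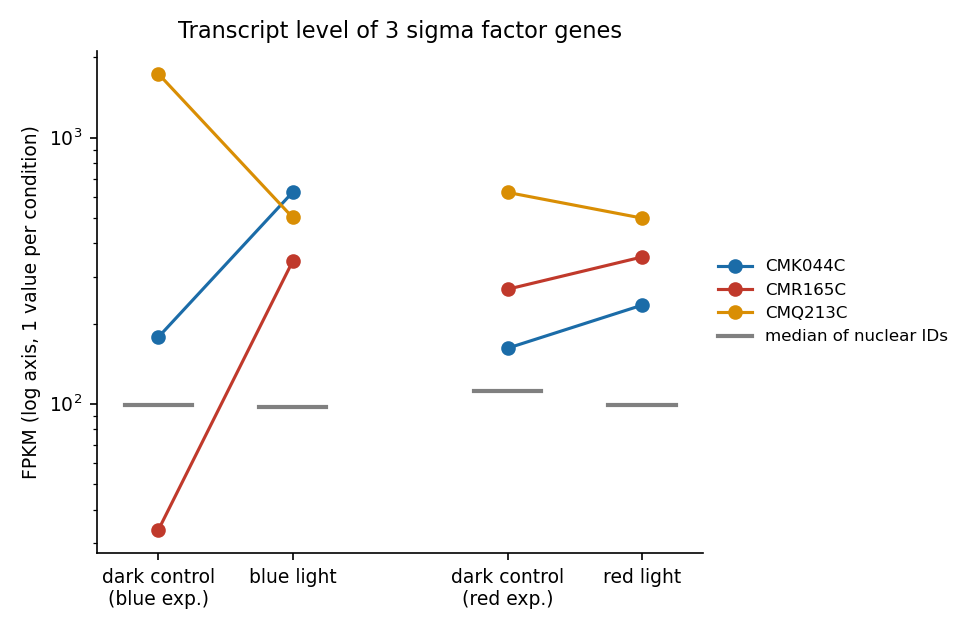
FPKM on a log axis for the 3 sigma factor genes (points, 1 combined value per condition; lines join a dark control to its lit cells) with the median of 4793 nuclear IDs as grey bars. In the blue experiment CMR165C climbs from 33.4 to 342 FPKM and CMQ213C drops from 1740 to 501. The lines of the red experiment are less steep, with changes of at most 1.45-fold.

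Red light was then set against its own dark control, to ask the same question. None of the 3 genes passed the threshold, while 42.0% of 4447 tested IDs did so, 14.9% as higher and 27.1% as lower. The authors' test, which the processing notes name as Cuffdiff, gave 0 of the 3 genes an unadjusted p-value under 0.05 as well. Each ratio had the same sign as under blue light and was smaller. CMK044C stood 1.45-fold higher under red light than in its dark control, with a log2 ratio of 0.54 and q = 0.279 in the authors' deposited table. CMR165C stood 1.32-fold higher, with a log2 ratio of 0.40 and q = 0.402 in that table. CMQ213C stood 1.25-fold lower, with a log2 ratio of -0.32 and q = 0.539 in the authors' deposited table. A q-value over the threshold does not show that these levels were equal, and no interval can be given without values per library.

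Red ratios lay lower as a whole, with a median of -0.26 on the log2 scale over all tested IDs against -0.01 under blue light. The 200 nuclear genes nearest in locus length had a median red log2 ratio of -0.43 for CMK044C, -0.36 for CMR165C and -0.10 for CMQ213C. Relative to them, the red log2 ratios were 0.97 for CMK044C, 0.76 for CMR165C and -0.22 for CMQ213C. Centred on the median of all tested IDs, they were 0.79 for CMK044C, 0.66 for CMR165C and -0.07 for CMQ213C. Among the nuclear genes, the red ratio was at percentile 78.1 for CMK044C and 74.8 for CMR165C. For CMQ213C it was at percentile 47.4, near the middle.

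**Figure D2:**
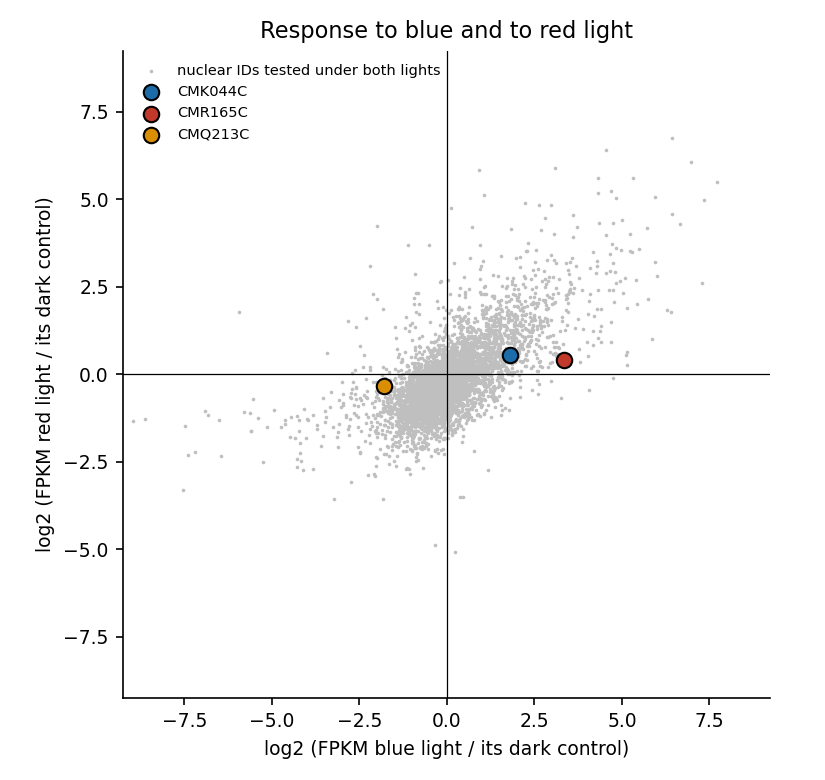
Log2 ratio of FPKM, light over its own dark control, under blue light (horizontal axis) and red light (vertical axis) for 4346 nuclear genes tested in both comparisons (grey) and the 3 sigma factor genes (coloured). The 3 genes spread from -1.80 to 3.36 along the blue axis and from -0.32 to 0.54 along the red axis.

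The difference between the 2 responses lay in the dark controls for CMR165C and CMQ213C and in the lit levels for CMK044C. For CMR165C the red log2 ratio minus the blue one was -2.95, lower than for all but 0.782% of 4346 nuclear genes tested in both comparisons. Its level in the RL(-) control stood 8.06-fold above that in the BL(-) control, a log2 difference of 3.01. The lit levels differed by 0.06 on the log2 scale. For CMQ213C the difference of ratios was 1.47, at percentile 95.6 of the same genes. Its dark control was 2.80-fold lower in the red than in the blue experiment, a log2 difference of -1.48, and its lit levels differed by -0.01. For CMK044C the difference of ratios was -1.27, at percentile 10.7. Its dark controls differed by -0.14, and its level under red light was 2.66-fold below that under blue light, a log2 difference of -1.41.

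CMR165C and CMQ213C therefore reached nearly the same level under both lights from dark levels that lay far apart, and CMK044C left nearly the same dark level for a higher one under blue light. Over the same nuclear genes, the median log2 difference of the red from the blue experiment was 0.18 for the dark controls and -0.16 for lit cells. These differences have no test. The sources used here do not state whether the experiments were scaled together, and the difference between the lights cannot be told apart from that between the experiments.

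From low to high, CMK044C ran from the RL(-) control through the BL(-) control and red light to blue light. CMR165C ran from the BL(-) control through the RL(-) control and blue light to red light. CMQ213C ran from red light through blue light and the RL(-) control to the BL(-) control. No pair of neighbours in these orders is one that the authors tested, so whether neighbours differ beyond the spread between libraries cannot be said.

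The make-up of the transcripts of the 3 genes changed accordingly. Their summed level was 1951 FPKM in the BL(-) control and 1466 FPKM under blue light. It was 1053 FPKM in the RL(-) control and 1088 FPKM under red light. CMQ213C held 89.2% of the sum in the BL(-) control, 34.2% under blue light, 59.1% in the RL(-) control and 45.8% under red light. CMK044C held 9.10% in the BL(-) control and 42.5% under blue light, where it was the highest of the 3. In the red experiment it held 15.3% in the dark and 21.5% in the light, where it was the lowest of the 3. CMR165C held 1.71% in the BL(-) control, 23.4% under blue light, 25.6% in the RL(-) control and 32.7% under red light. Thus CMQ213C was the highest of the 3 genes in both dark controls and under red light, but not under blue light. These shares cover only the 3 genes, and other sigma factor genes that the alga may have were not analysed here.

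**Figure D3:**
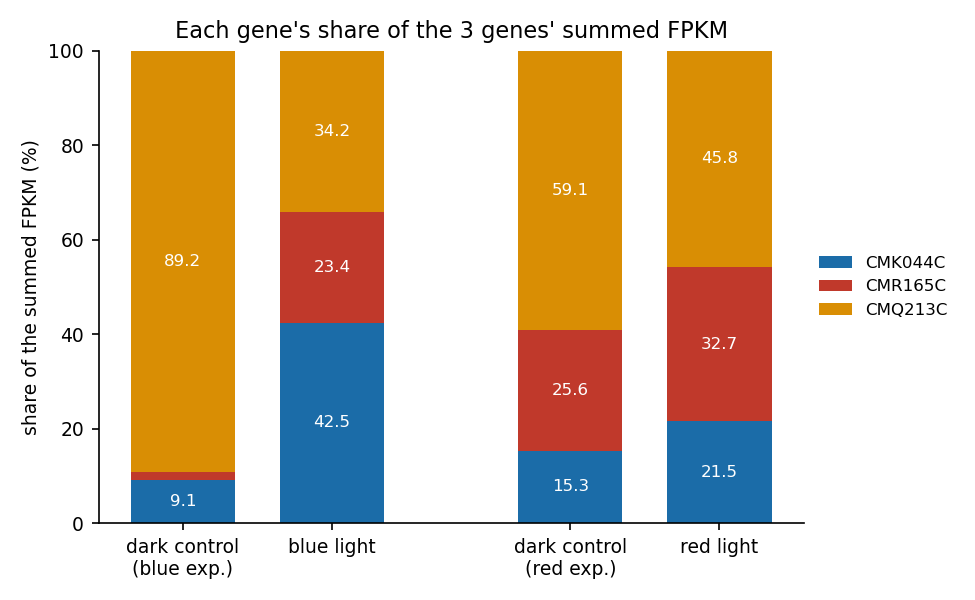
Share (%) of the summed FPKM of the 3 sigma factor genes held by each gene in each condition, stacked to 100. CMQ213C takes 89.2% in the BL(-) control and 34.2% under blue light; CMR165C takes 1.71% there and 23.4%.

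Each of the 3 genes was alone in its locus. The protocol mentions no strand marking, so reads from overlapping neighbours could not be told apart, but the nearest IDs lay 1433 to 4644 bp away. Next to CMR165C, CMR162C went from 142 to 84.5 FPKM under blue light, the opposite direction, with q = 0.0498 in the authors' deposited table. On the other side CMR167C stood at 396 FPKM before and 385 FPKM after blue light, with q = 0.943 in that table. Next to CMK044C, CMK045C stood at 121 and 103 FPKM in the blue experiment, with q = 0.566 in the authors' deposited table. CMK043C, on its other side, was not tested under blue light; it stood at 15.5 and 17.2 FPKM there and at 217 and 149 FPKM in the dark and lit cells of the red experiment. Next to CMQ213C, CMQ214C stood at 168 and 222 FPKM in the blue experiment, with q = 0.291 in the authors' deposited table, and EPlCMEG00000000083 was listed at 0 in all 4 conditions. No tested neighbour was called in the same direction as its sigma factor gene under blue light.

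The nuclear genes with the most similar pattern were sought over the 4 conditions, by the Euclidean distance between log2 FPKM values centred on each gene's own mean. This used 4346 nuclear genes tested in both comparisons. Nearest to CMK044C were CMA124C at a distance of 0.12, CMT534C at 0.15 and CMT598C at 0.16, and 539 genes lay within a distance of 1. CMA124C, for example, stood at 23.7 and 82.5 FPKM in the blue experiment and at 22.8 and 34.4 FPKM in the red one. Nearest to CMQ213C were CMD036C and CMP157C, both at 0.19, and CMM061C at 0.22, and 264 genes lay within a distance of 1. CMM061C fell from 1137 to 397 FPKM in the blue experiment and stood at 437 and 387 FPKM in the red one.

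CMR165C had fewer genes near it by this distance. Its nearest were CMH183C at 0.50, CMT193C at 0.53 and CMM228C at 0.62, and 24 genes lay within a distance of 1. The median distance over all genes was 3.06 for CMR165C, 1.85 for CMK044C and 1.74 for CMQ213C. The values were centred but not scaled, so this distance also grows with the size of a gene's change. CMR165C spanned 10.6-fold from its lowest to its highest level, CMK044C 3.85-fold and CMQ213C 3.49-fold. How much of the distance of CMR165C came from this was not tested. CMT193C went from 5.59 to 76.0 FPKM under blue light and from 60.4 to 100.4 FPKM with red light; in the authors' deposited table q was 0.00332 and 0.0408, both under 0.05, and the second over the 0.01 of the authors' own mark. A distance over 4 values is a coarse measure and says nothing of a shared function.

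The chloroplast-encoded transcripts, which this polymerase makes, were set beside the sigma factor genes. The table places 244 IDs on the chloroplast genome. Under blue light 70 of them were tested, with 13 rises, 5 falls and 52 without a call at a q-value under 0.05 in the authors' deposited table. Called IDs were 25.7% of these 70, a smaller share than the 40.6% seen among all IDs tested under blue light. That wider share was made up of 22.2% higher and 18.4% lower. The authors' own significance mark, which follows a q-value under 0.01, leaves 9 rises and 1 fall among the chloroplast IDs. The median log2 ratio was 0.28 over 65 IDs with a ratio, beside -0.01 over all tested IDs. The ratios of CMR165C and CMK044C lay above 64 and 54 of these 65, and that of CMQ213C above 2. The 5 that fell, named after their values were seen, were CMV113C, CMV114C, CMV146C, CMV132C and CMV154C. Of these, CMV113C and CMV114C share a locus, and CMV146C and CMV132C span only 141 and 273 bp. Among IDs alone in their locus and at least 300 bp long, 6 rose and 1 fell. The 1 that fell was CMV154C, with q = 0.0401 in the authors' deposited table.

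Under red light, where no sigma factor gene passed the threshold, 25 of 52 tested chloroplast IDs rose and 1 fell at a q-value under 0.05 in the authors' deposited table, with a median log2 ratio of 2.35 over 47 IDs. All tested IDs had a median of -0.26. Calls were 50% of the 52 chloroplast IDs, beside 42.0% of all tested IDs, where 14.9% rose and 27.1% fell. The chloroplast ratios lay above those of the 3 sigma factor genes for 44 of 47 IDs in each case. With the authors' own significance mark, 16 chloroplast IDs rose. An ID high under red light is more likely to be tested there. Over the IDs tested under blue light the median red log2 ratio was 2.10. That list was filtered too and shares 46 IDs with the list tested under red light. IDs listed at 0 have no ratio in either list. The value of 2.10 therefore cannot remove this selection, which also bears on the median of 2.35 and the 44 of 47 IDs.

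Levels in the dark differed here too. Over 46 chloroplast IDs tested in both comparisons, the median was 136 FPKM in the BL(-) control and 189 FPKM under blue light. It was 18.4 FPKM in the RL(-) control and 127 FPKM under red light. In the RL(-) control CMK044C, CMR165C and CMQ213C stood above most of these IDs, with 6, 5 and 4 of 46 higher. In the BL(-) control 21, 36 and 7 were higher. Between the dark controls, CMQ213C and the median of these 46 IDs were thus lower in the red experiment. CMR165C was higher and CMK044C was close. Over all 244 chloroplast IDs the median was 5.14 FPKM in the BL(-) control and 2.89 FPKM under blue light. It was 3.05 FPKM in the RL(-) control and 2.77 FPKM under red light. In that order of conditions, 77, 106, 90 and 87 of the 244 were listed at 0. A higher median in the light was thus seen in the 46 tested IDs and not over all 244.

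**Figure D4:**
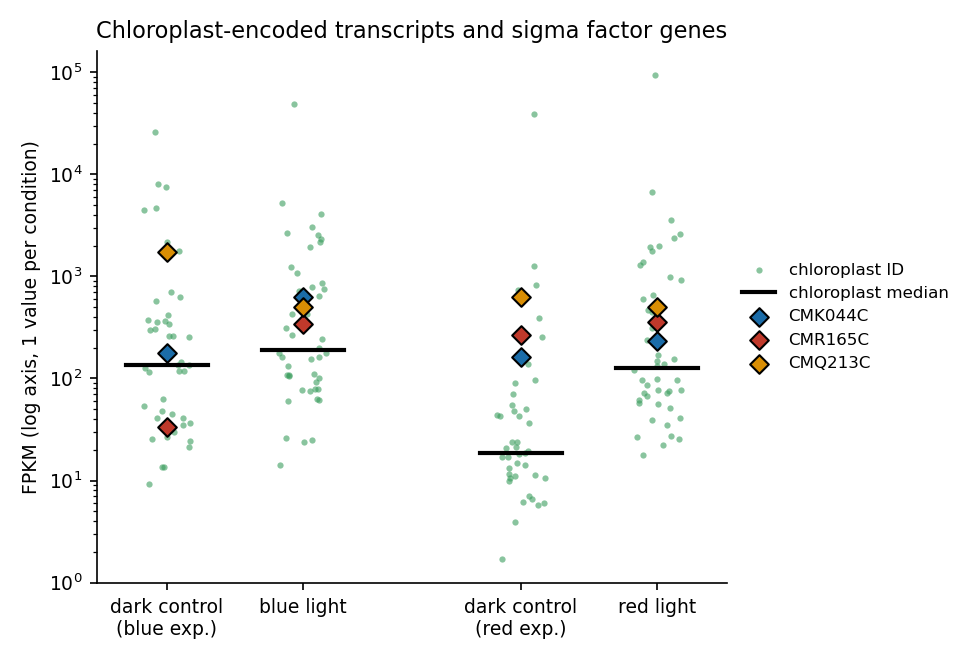
FPKM on a log axis of 46 chloroplast IDs tested in both comparisons (green points, jittered sideways; black bar, median) and of the 3 sigma factor genes (diamonds) in each condition. The chloroplast median is 18.4 FPKM in the RL(-) control and 127 to 189 FPKM in the other conditions; 1 ID listed at 0 in the BL(-) and 4 in the RL(-) control are not drawn.

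Among 21 chloroplast IDs that were alone in their locus, at least 300 bp long and tested in both comparisons, the 3 with the highest mean level were CMV096C, CMV097C and EPlCMEG00000000084. CMV096C was at 4521 and 5200 FPKM in the dark and lit cells of the blue experiment and at 741 and 3610 FPKM in the red experiment. CMV097C was at 1765 and 2184 FPKM in the blue and at 388 and 1983 FPKM in the red experiment. Both rose under red light with q = 0.00045 in the authors' deposited table and were not called under blue light, where q was 0.800 and 0.582. EPlCMEG00000000084 stood at 2185 and 2658 FPKM in the blue experiment and fell from 255 to 95.8 FPKM under red light, with q = 0.00446 in the authors' deposited table. Neither the table nor the reference names these IDs, so no chloroplast gene is described by function, including the genes for the core subunits of the polymerase.

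RNA was selected on oligo(dT) beads, and chloroplast transcripts as a rule carry no stable poly(A) tail. The part of this selection in the chloroplast values was not tested. Nor was any effect of a sigma factor on a chloroplast gene: the values show only which levels stood side by side after 30 min of light.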

How the data were processed

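Per the labels' protocols, TruSeq mRNA libraries of oligo(dT)-selected RNA from wild-type C. merolae 10D cells were read from both ends, 75 bp each, on a MiSeq. Tools listed in the submitters' processing notes are Cuffdiff, TopHat, TopHat2 2.0.5, Trimmomatic 0.32 and FastQC 0.11.5; no genome build or annotation is given in the sources used here. For each condition and comparison, the authors deposited 1 FPKM value, with the 2 replicates combined, over 5091 gene IDs and 1 entry that names no gene, which was left out. P-value and q-value were used as the authors deposited them, and the set of tests behind the q-value is not stated.

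Log2 ratios were computed from the deposited FPKM, light over dark, with no pseudocount, and a gene listed at 0 has none. The authors' log2 column was not used, because it holds text where a value is 0. A percentile is the share of nuclear IDs with a lower value. No test on libraries was possible, and how the spread between replicates entered the deposited p-values could not be checked. These p-values compare lit cells with their own dark control only and do not cover the difference between the experiments.

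Gene names were sought in the RefSeq table of assembly ASM9120v1. It matched 4752 IDs by locus tag, all 3 sigma factor genes among them and 0 of the chloroplast IDs, and holds no symbols beyond the locus tags. A protein search for further sigma-like genes, and a list of genes for the polymerase core, had been foreseen but were not run, since no protein sequences or product names were at hand; for the same reason no sequence is printed. Genes named in the text by rule are the 3 members, the nearest ID on each side and the 3 nuclear genes with the smallest profile distance. The 3 highest chloroplast IDs under the stated conditions were also named by rule. The 5 chloroplast IDs that fell under blue light were outside these rules and were named after their values were seen. The members and lists were chosen with earlier results of these data known. Calculations used Python 3.11.15, numpy 2.4.6, pandas 2.3.3 and matplotlib 3.10.9, and the code was tested on simulated data, for which scipy 1.17.1 was used.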

Additional observations from a re-analysis of the deposited data

How the results depend on the processing

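The calls of the 3 sigma factor genes, 3 under blue light and 0 under red light, kept their side of the threshold and their direction with the authors' significance mark and with Benjamini-Hochberg values within each comparison, and every ratio kept its sign with a pseudocount of 1, with centring on the median and relative to genes of like locus length, a choice made after seeing the data. The order of the 4 levels was the same when FPKM was divided by the nuclear median. Of 79 alternative values, 73 were scored as unchanged. Counts, and values without a test, were allowed a 1.5-fold range. A tested ratio of a sigma factor gene needed only to keep its sign and its call. The pseudocount, the centring and the genes of like locus length could not alter a call, so these scores rest on the sign alone. The other 6 alternative values were chloroplast counts. Under blue light 1 chloroplast ID fell by the authors' mark and 3 among IDs tested in both comparisons; among IDs alone in their locus and at least 300 bp long, 6 rose and 1 fell. Under red light 16 rose by the authors' mark, and 0 fell among IDs whose name starts with CMV, a choice made after seeing the data. No paired analysis was possible because the table holds no values per library, and for the same reason no replicate could be left out. Depth is unknown, so the precision of each FPKM value cannot be given.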

Other observations

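CMR165C and CMQ213C stood at least 2-fold apart between the dark controls and closer than 1.1-fold between the lit cells. That combination was looked for in all nuclear genes after it had been seen in these genes, and has no test. Of 1017 nuclear genes at least 2-fold apart in the dark, 85 had lit levels closer than 1.1-fold, which is 8.36%. Among the 3329 genes closer than 2-fold in the dark it was 516, or 15.5%.

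Among 951 nuclear genes tested in both comparisons that rose under blue light, as CMK044C and CMR165C did, 49.2% were not called under red light. Among 823 that fell, as CMQ213C did, it was 35.6%. Over all 4355 nuclear genes tested in both comparisons the share not called under red light was 58.2%.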
